A study of Mus musculus with 12 samples.

Results

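The genes of the elastic fibre were described in 12 RNA libraries from mouse cells labelled MLO-Y4, an osteocyte-like line. Names within the deposited data carry the prefix MC3, whose meaning is not stated, so the cell line rests on the label alone. The group was set as a list of 10 genes: elastin (Eln), the fibrillins (Fbn1 and Fbn2), the fibulins (Fbln1, Fbln2, Fbln5, Efemp1 and Efemp2) and the microfibril-associated genes Mfap4 and Mfap5. They are 10 of 51707 genes with a transcript in the deposited data, and transcripts of each were listed. On GRCm38, Eln lies at chr5:134702593-134747323 on the - strand, Mfap4 at chr11:61485431-61488900, Mfap5 at chr6:122505845-122529290 and Fbln2 at chr6:91212455-91272540, all 3 on the + strand. After the filter on low counts 9 of the 10 were tested, and Fbn2 was not.

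Elastic fibres give soft tissues their recoil. A core of crosslinked elastin is laid down on a scaffold of microfibrils, which are built from fibrillins and also hold latent TGF-beta in the matrix. Fibulins bridge elastin, microfibrils and the crosslinking enzymes of the lysyl oxidase family, and the microfibril-associated proteins bind to the scaffold. In bone, fibrillin microfibrils are known for their part in storing growth factors, while elastin is mainly a product of arteries, lung, skin and elastic cartilage.

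The 4 groups, with 3 libraries in each, were differentiated cells given BIGH3, differentiated controls, undifferentiated cells given BIGH3 and undifferentiated controls. BIGH3 is the secreted matrix protein made from the TGFBI gene, and the human recombinant form was used. The genotype of every group is labelled wild type, and all plates carried a coat of collagen from rat tail at 0.15 mg/mL. The protocol also names HCQ and anti-BIGH3 antibodies, but no library is labelled with either. Differentiation medium contained 4 mM beta-glycerophosphate, 50 µg/mL ascorbic acid and 10% serum, and the labels list no such additions for undifferentiated cells, so differentiation and a direct action of the medium cannot be told apart. The dose and duration of BIGH3, and what controls were given, are not stated in the sources used here. Whether the libraries within each group are separate cultures is not stated, and p-values measure the spread between these libraries, which may be technical.

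Depth was 19014492 to 27612155 estimated reads per library. Of the defining osteocyte genes, Dmp1 averaged 37.1 to 85.7 CPM over the groups (estimated reads relative to the TMM-scaled library size), Sost averaged at most 0.156 CPM and Fgf23 had no read, so the labelled cell type was matched by only some of its markers. Liver transcripts were present in some libraries. Afp, the fetal plasma protein gene, stood at 27.0 CPM in differentiated BIGH3 library 3, 24.9 CPM in differentiated control 2, 11.2 CPM in undifferentiated BIGH3 1 and 63.3 CPM in undifferentiated control 2, and at most 3.64 CPM in the other libraries. The libraries described below as those with liver transcripts are these 4, set by Afp. Summed over 12 liver markers, differentiated BIGH3 1 and 2 (24.6 and 25.9 CPM) stood slightly above undifferentiated BIGH3 1 (22.3 CPM). Results on the members are also given without the libraries set by Afp where that changed a call.

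With BIGH3 in differentiated cells 6 of the 10 elastic fibre genes fell and 2 rose. Eln, Mfap4 and Mfap5 fell the most, by 19.1-fold, 11.8-fold and 3.02-fold, and Fbln2, Fbln5 and Fbn1 fell by 1.66-fold, 1.35-fold and 1.33-fold. Efemp1 and Efemp2 were 1.59-fold and 1.13-fold higher, Fbln1 was not called and Fbn2 was not tested. With a stricter low-count filter (at least 50 reads in 3 libraries), which leaves out Eln and Fbln1 as well, 5 of 7 members tested were lower and 2 higher. Mfap4, among these 5, passed this filter only through the differentiated controls, the group in which it is high, so the count is not free of that selection. A gene was called at an adjusted p below 0.05 in edgeR's quasi-likelihood test. Calls were common in this comparison: 45.5% of the 14711 genes tested were called, 22.6% higher and 22.9% lower. The median log2 fold change was -0.43 over the 9 members tested and -0.01 over all genes tested. In each of the 8 called members no treated library overlapped a control library. How many of all genes tested were separated in this way was not counted, so the separation is not read as particular to the members. In bulk RNA fewer cells of a type and less RNA per cell cannot be told apart.

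**Figure D1:**
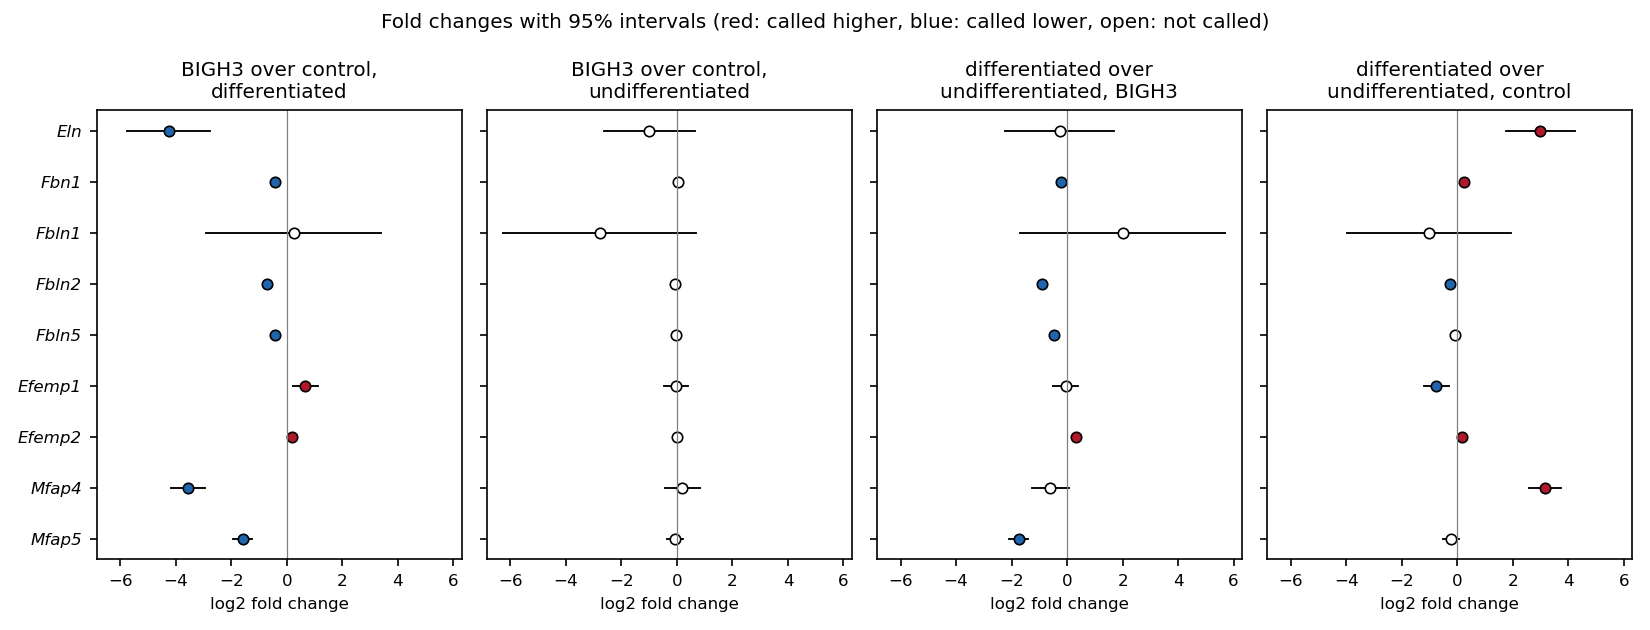
Log2 fold changes of the 9 tested members (x axis) with 95% confidence intervals, in 4 comparisons, where filled points are called at an adjusted p below 0.05. With BIGH3 in differentiated cells 6 members lie below 0 and called, while in undifferentiated cells all 9 are open.

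Eln encodes tropoelastin, the soluble precursor that is crosslinked into the fibre core. It had 0, 2 and 2 reads in the differentiated BIGH3 libraries, against 39, 29 and 28 reads in differentiated controls. In undifferentiated cells it had 5, 0 and 1 reads with BIGH3 and 4, 3 and 6 reads in controls. The differentiated controls were high, and none of their libraries overlapped any other group. The level was low even there, at 0.501 ± 0.069 TPM (SD, n = 3), where TPM is a share of transcripts corrected for length. Eln passed the low-count filter through the differentiated controls, the group in which it is high. With BIGH3 in differentiated cells its log2 fold change was -4.25 ± 0.71 (SE, adjusted p = 5.16e-05). With no low-count filter, so that Eln did not have to pass one, it was -4.26 (adjusted p = 3.88e-08). In that fit the adjusted p of Mfap5 was also smaller, 1.73e-48 against 5.43e-07 with the filter. That of Efemp1 was larger, 0.037 against 0.0154. The smaller adjusted p of Eln is therefore not read as stronger evidence. The Eln log2 fold change lay between -4.70 and -3.64 with 1 library left out, and was smallest without differentiated BIGH3 1, the library with 0 reads. Of the Eln reads in differentiated controls 90.7% were assigned to the coding transcript Eln-201. The 4 reads in differentiated BIGH3 cells and the 6 in undifferentiated BIGH3 cells were all assigned to Eln-203, a nonsense-mediated decay transcript. In undifferentiated controls 46% went to Eln-201 and 46% to Eln-204, a retained-intron transcript. So few reads hardly resolve the transcripts in these groups. An antisense gene, Gm30003, shares 267 of 8098 exon bases of Eln, and the strand of the libraries is not given, so reads of the overlap were not told apart.

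Fbn1 encodes the main fibrillin of microfibrils after birth. It stood at 458, 479 and 476 CPM in differentiated BIGH3 libraries and at 628, 638 and 617 CPM in differentiated controls. The treated libraries all lay below the controls, with a log2 fold change of -0.41 ± 0.06 (adjusted p = 5.49e-06). The undifferentiated libraries lay between 493 and 613 CPM with BIGH3 and between 534 and 535 CPM in controls. The protein-coding gene Gm9913 on the opposite strand shares 2442 of the 12128 exon bases of Fbn1, and reads from the overlap could belong to either.

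Fbn2 encodes the fibrillin that predominates in developing tissue. It had 2 reads over the 3 differentiated BIGH3 libraries and 10 over the differentiated controls, 9 of them in control 2, one of the libraries with liver transcripts. Over the undifferentiated libraries it had 3 reads with BIGH3 and 0 in controls. The ratio of read rates with BIGH3 in differentiated cells was 0.23, with a 95% counting interval of 0.0245 to 1.08 that covers counting error only. Differentiated controls were at least 3.69-fold higher than undifferentiated controls, whose group total was set at 3 reads for the bound, and this rests on control 2.

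Mfap4 encodes a fibrinogen-like protein that binds fibrillin and elastin. It had 10, 13 and 6 reads in differentiated BIGH3 libraries, against 133, 101 and 163 in differentiated controls, or 0.496 ± 0.183 CPM against 5.91 ± 1.39 CPM (SD, n = 3 each). As for Eln, the differentiated controls stood above every other library. Undifferentiated cells had 18, 17 and 18 reads with BIGH3 and 13, 18 and 18 in controls. With BIGH3 in differentiated cells the log2 fold change was -3.56 ± 0.29 (adjusted p = 2.54e-09). Mapk7 on the opposite strand shares 89 of 1922 exon bases.

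Mfap5 encodes a microfibril-associated glycoprotein that also binds growth factors of the TGF-beta family. It stood at 6.66, 7.11 and 3.81 CPM in differentiated BIGH3 libraries and at 15.8, 18.4 and 19.2 CPM in differentiated controls, which did not overlap. The log2 fold change was -1.59 ± 0.16 (adjusted p = 5.43e-07). Both undifferentiated groups were near the differentiated controls, at 19.8 ± 1.07 CPM with BIGH3 and 20.6 ± 1.52 CPM in controls. Its coding transcript Mfap5-207 took 70.8% of the gene's reads in differentiated BIGH3 cells and 56.4% in differentiated controls, and the shorter Mfap5-202 took 17.9% and 35.5%, shares that were not called as different.

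**Figure D2:**
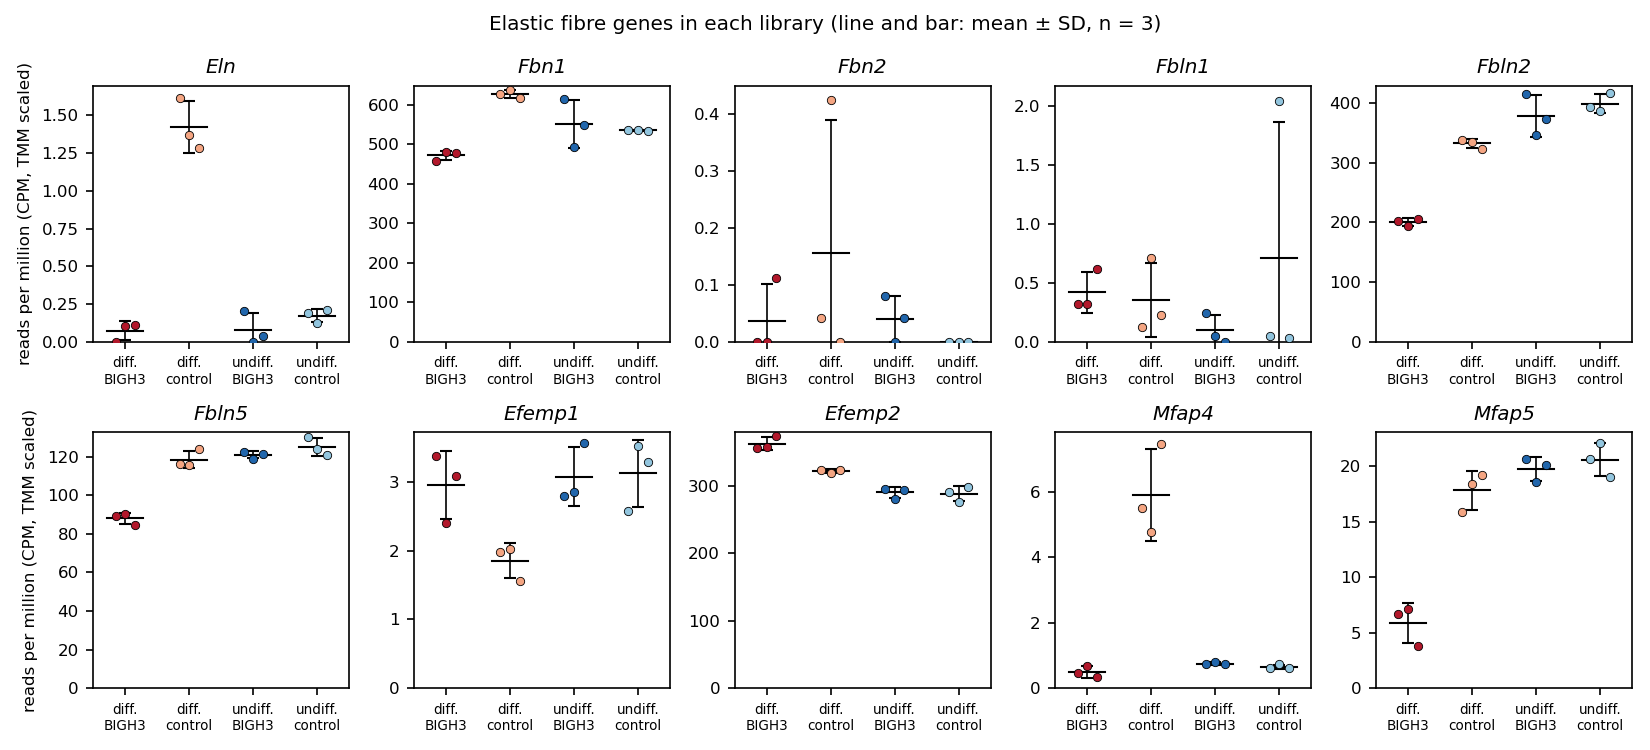
Level of each of the 10 members in CPM (y axis, linear, from 0) in each library, by group, with the mean and SD of 3 libraries. Eln and Mfap4 are high in the differentiated controls alone, Mfap5 and Fbln2 are lowest in differentiated BIGH3 cells, and Fbln1 is highest in undifferentiated control 2.

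Fbln5, an elastin-binding fibulin that is needed for fibre assembly in mice, stood at 89.1, 90.3 and 84.6 CPM in differentiated BIGH3 libraries and at 116, 116 and 124 CPM in differentiated controls. All treated libraries were lower, with a log2 fold change of -0.43 ± 0.05 (adjusted p = 2.58e-07). Undifferentiated cells were at 121 ± 1.82 CPM with BIGH3 and 125 ± 4.81 CPM in controls. The pattern over the 12 libraries was closest to that of Fbn1 among the other tested members, with a root mean square difference of 0.158 in centred log2 CPM.

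Efemp2 encodes the fibulin that brings lysyl oxidase to tropoelastin. It stood at 356, 359 and 374 CPM in differentiated BIGH3 libraries, against 324, 319 and 323 CPM in differentiated controls. The treated libraries were all higher, by a log2 fold change of 0.17 ± 0.05 (adjusted p = 0.00406). The call was lost without the 3 libraries with most liver transcripts (0.13, adjusted p = 0.0924), without these and undifferentiated BIGH3 1 (0.14, adjusted p = 0.0592) and on the log2(TPM + 1) scale (0.18, adjusted p = 0.0501). Mus81 on the opposite strand shares 173 of 3788 exon bases.

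Efemp1, a fibulin of basement membranes and elastic tissue, was at 3.37, 2.41 and 3.08 CPM in differentiated BIGH3 libraries and at 1.98, 2.03 and 1.56 CPM in differentiated controls. The groups did not overlap, and the log2 fold change was 0.67 ± 0.22 (adjusted p = 0.0154). The call was lost without differentiated BIGH3 1 (0.55, adjusted p = 0.0767) or differentiated control 3 (0.55, adjusted p = 0.0761), and with length offsets (0.53, adjusted p = 0.0575). It was also lost without the 3 libraries with most liver transcripts (0.69, adjusted p = 0.0651) and without the 4 (0.71, adjusted p = 0.0637).

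Fbln1, a fibulin of vessel walls and basement membranes, had 7, 6 and 11 reads in differentiated BIGH3 libraries and 3, 15 and 5 in differentiated controls. In undifferentiated cells it had 6, 1 and 0 reads with BIGH3 and 1, 50 and 1 in controls. The highest library of each group but one (undifferentiated control 2, differentiated control 2 and differentiated BIGH3 3) was one of the 3 with most Afp. The highest of the remaining group was undifferentiated BIGH3 1, the fourth by Afp. Fbln1 was not called with BIGH3 in differentiated cells (0.25 ± 1.395, adjusted p = 0.907), and the part of the liver transcripts in its levels was not tested. It passed the filter on low counts with these libraries present and was not tested without the 3 or the 4 of them.

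Fbln2 encodes a large fibulin that binds elastin, fibrillin and basement membrane proteins. It was at 203, 193 and 206 CPM in differentiated BIGH3 libraries and at 339, 334 and 323 CPM in differentiated controls. The treated libraries lay below the controls and below both undifferentiated groups, which averaged 378 ± 34.8 CPM with BIGH3 and 399 ± 16.3 CPM in controls. The log2 fold change with BIGH3 in differentiated cells was -0.73 ± 0.06 (adjusted p = 1.34e-09).

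The fall of Fbln2 was uneven between its transcripts. Fbln2-201 has 18 exons and Fbln2-202 has 17, since Fbln2-202 skips exon 9, an in-frame coding exon of 141 bases (47 codons) at chr6:91259630-91259770 on the + strand of GRCm38, whose product is an epidermal growth factor-like module. Both sequences are shown since the transcripts differ there, taken from the GENCODE transcripts, with exon 9 in capitals and 30 bases of each neighbouring exon, exon 8 and exon 10, in lower case.
Fbln2-201: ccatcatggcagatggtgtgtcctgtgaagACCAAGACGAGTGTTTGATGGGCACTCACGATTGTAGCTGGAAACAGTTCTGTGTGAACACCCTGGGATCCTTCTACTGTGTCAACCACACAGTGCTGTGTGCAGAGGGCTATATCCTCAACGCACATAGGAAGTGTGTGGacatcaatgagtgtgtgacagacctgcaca
Fbln2-202: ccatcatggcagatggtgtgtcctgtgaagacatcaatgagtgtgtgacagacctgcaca

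In TPM, the transcripts with exon 9 made up 14.4%, 9.78% and 15.4% of the expression of both kinds in differentiated BIGH3 libraries, and 29.2%, 27.3% and 34.6% in differentiated controls. In undifferentiated cells the share was 45.1%, 53.0% and 52.7% with BIGH3 and 48.1%, 51.9% and 52.0% in controls. The 2 differentiated groups did not overlap with each other or with the undifferentiated ones, and the undifferentiated groups overlapped. With 3 libraries against 3 the smallest two-sided p of an exact permutation test is 0.1, and it was reached for BIGH3 in differentiated cells (-17.2 percentage points) and for differentiation, both with BIGH3 (-37.1) and in controls (-20.3). For BIGH3 in undifferentiated cells the difference was -0.39 percentage points (exact p = 1). Transcripts that lack the flanking splice sites were left out of the share. A minor retained-intron transcript that has both sites was counted among those without the exon. It averaged 0.37 TPM in differentiated BIGH3 cells and 0.697 TPM in differentiated controls. Fbln2-201, with the exon, averaged 6.30 ± 1.72 TPM in differentiated BIGH3 cells and 24.1 ± 1.92 TPM in differentiated controls. Transcripts without it averaged 41.2 ± 0.977 TPM in differentiated BIGH3 cells and 55.6 ± 6.52 TPM in differentiated controls (SD, n = 3 each).

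**Figure D3:**
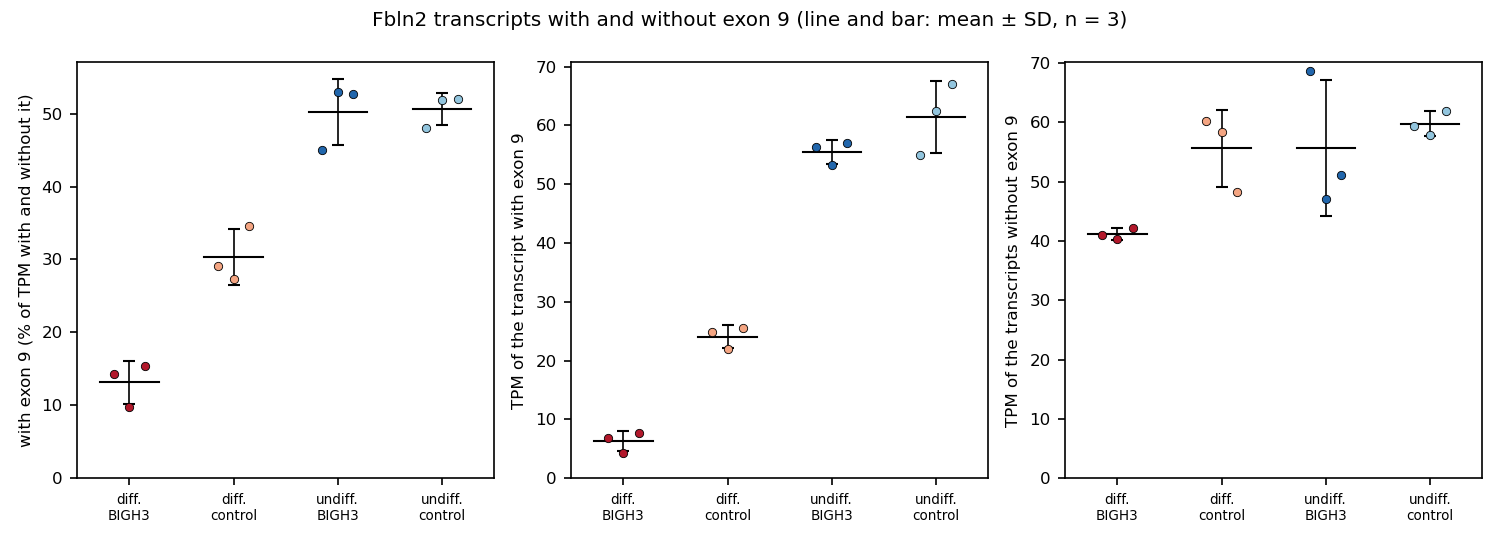
TPM of the transcript with exon 9 as a percent of the summed TPM of the Fbln2 transcripts with and without it (left), and TPM of the transcripts with it (middle) and without it (right), in each library by group, with the mean and SD of 3 libraries. The share is 9.78% to 15.4% in differentiated BIGH3 cells, 27.3% to 34.6% in differentiated controls and at least 45.1% in every undifferentiated library.

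A fit of transcript shares over 34748 transcripts, added after these shares were seen, called Fbln2-201 lower relative to its gene with BIGH3 in differentiated cells (log2 -0.86, adjusted p = 8.58e-06). The share was also called lower with differentiation in BIGH3 treated cells (-1.38, adjusted p = 1.03e-10) and in controls (-0.55, adjusted p = 0.00418), and the BIGH3 effect differed between the states (interaction -0.83, adjusted p = 0.00261). It was not called with BIGH3 in undifferentiated cells (-0.03, adjusted p = 1). Fbln2-202 was called higher in share with differentiation in BIGH3 treated cells alone (0.51, adjusted p = 0.00493), and of the other members with transcripts that could be tested (Fbn1, Fbln5, Efemp2 and Mfap5) no transcript was called. Of all transcripts tested 0.832% were called with BIGH3 in differentiated cells, 0.187% with BIGH3 in undifferentiated cells, 0.993% with differentiation in BIGH3 treated cells, 0.895% with differentiation in controls and 0.581% for the interaction. On simulated data this test missed most changes in transcripts that make up most of their gene, so an uncalled share is not read as unchanged. The division of reads between transcripts is the deposited estimate, and its uncertainty is not given in the files.

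Per length, Efemp2 had the highest level, at 311 ± 24.4 TPM in differentiated BIGH3 cells, 274 ± 11.5 TPM in differentiated controls, 293 ± 19.4 TPM in undifferentiated BIGH3 cells and 296 ± 2.58 TPM in undifferentiated controls. Fbln2 came next in every group, with 65.1 ± 3.75 TPM in differentiated BIGH3 cells and 99.8 ± 3.11 TPM in differentiated controls. Fbn1 (57.1 ± 2.83 TPM in differentiated BIGH3 cells, 75.2 ± 4.87 in differentiated controls) and Fbln5 (46.2 ± 0.215 and 61.9 ± 1.94 TPM in the same groups) followed. Their libraries did not overlap in differentiated cells and did in both undifferentiated groups, so there the order of Fbn1 and Fbln5 is not resolved. Mfap5 was 5th in each group, with 6.49 ± 2.39 TPM in differentiated BIGH3 cells and 23.9 ± 0.602 TPM in differentiated controls. Efemp1 (2.00 ± 0.155 TPM) stood above Mfap4 (0.373 ± 0.128 TPM) in differentiated BIGH3 cells, whereas in differentiated controls Mfap4 (4.40 ± 0.819 TPM) stood above Efemp1 (1.36 ± 0.25 TPM). Eln, Fbln1 and Fbn2 were lowest. In differentiated BIGH3 cells the libraries of Fbln1 overlapped those of Mfap4, and those of Eln overlapped those of Fbn2.

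In undifferentiated cells no member was called with BIGH3: 0 of 9 tested were called by edgeR, and every member's libraries overlapped between BIGH3 and control. None of the 9 had an unadjusted p below 0.05. DESeq2 and limma also called 0. Few genes were called here at all, 3 of 14711 (0.0204%), with 599 at an unadjusted p below 0.05. The intervals bound the abundant members closely: the log2 fold change was 0.04 for Fbn1 (95% interval -0.08 to 0.16), -0.08 for Fbln2 (-0.19 to 0.04), -0.05 for Fbln5 (-0.14 to 0.05) and 0.01 for Efemp2 (-0.09 to 0.10). The signs of the Fbn1 and Efemp2 values were the opposite on the log2(TPM + 1) scale. Intervals were wide for Eln (-0.995, interval -2.63 to 0.64) and Fbln1 (-2.77, interval -6.25 to 0.70), where few reads leave large changes undetectable. With 1 library left out the Eln value lay between -2.71, without undifferentiated BIGH3 1, and -0.487, without undifferentiated BIGH3 2.

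The BIGH3 effect was lower in differentiated than in undifferentiated cells for 6 of the 9 members by the interaction term, and higher for 0. Over all genes 32.2% were called for the interaction, 16.2% higher and 16% lower, or 2378 and 2352 genes, against 2214 and 1135 on the log2(TPM + 1) scale. The differences were -3.76 ± 0.42 for Mfap4 (adjusted p = 5.07e-07), -1.54 ± 0.21 for Mfap5 (3.31e-05), -0.65 ± 0.08 for Fbln2 (2.12e-06), -0.46 ± 0.08 for Fbn1 (0.000183) and -0.38 ± 0.07 for Fbln5 (0.000141), on the log2 scale. On the log2(TPM + 1) scale the Fbn1 call was lost (-0.36, adjusted p = 0.0597). For Eln, which passed the low-count filter through the differentiated controls, the difference was -3.26 ± 1.17 (adjusted p = 0.0375). With no low-count filter it was -3.26 (adjusted p = 0.0222), and as above the smaller adjusted p is not read as stronger evidence. The call was lost in 9 of 12 fits that left out 1 library. In 8 of these the value stayed between -3.66 and -2.64 (adjusted p = 0.0512 to 0.0932), and without undifferentiated BIGH3 1 it was -1.54 (adjusted p = 0.606). The call was also lost with length offsets (-3.08, adjusted p = 0.0975), without the 3 libraries with most liver transcripts (-3.55, 0.0916) and without the 4 (-1.82, 0.626). Efemp1 (0.70 ± 0.30, adjusted p = 0.0809) and Efemp2 (0.17 ± 0.07, adjusted p = 0.0567) were not called, and Efemp2 was called under 5 other settings (adjusted p = 0.0229 to 0.0487) and without undifferentiated control 2 (0.0377).

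Differentiation in controls raised 4 members and lowered 2 of the 9 tested, against 29.1% of all genes called higher and 28.6% lower (57.7% in all). That is 4287 and 4204 genes, against 2930 and 5899 with library totals as the scaling and 1728 and 6965 on the log2(TPM + 1) scale. Mfap4 was 8.91-fold higher in differentiated controls (log2 3.16 ± 0.28, adjusted p = 4.56e-09) and Eln 7.95-fold higher (2.99 ± 0.60, adjusted p = 0.000233). Eln passed the low-count filter through the differentiated controls, the group that is high here. With no low-count filter its value was 2.98 (adjusted p = 8.95e-06), and as above the smaller adjusted p is not read as stronger evidence. With the stricter filter, which leaves out Eln and Fbln1, 5 of 7 members tested were called, 3 higher and 2 lower. Mfap4, among the 3 higher, passed that filter only through the differentiated controls. Efemp1 fell by 0.75 on the log2 scale (adjusted p = 0.0048) and Fbln2 by 0.26 (adjusted p = 0.000465). Fbn1 (0.23 ± 0.06, adjusted p = 0.00175) and Efemp2 (0.16 ± 0.05, adjusted p = 0.0062) were called higher in CPM, but on the log2(TPM + 1) scale, where the median of all genes lies at -0.25, they stood at -0.07 and -0.11 and were not called. With library totals as the scaling, which puts that median at -0.16, they stood at 0.08 and 0.01 and were not called. The Efemp2 call was also lost without undifferentiated control 2 (0.12, adjusted p = 0.0503) and without the 3 (0.13, 0.0638) or 4 (0.13, 0.0644) libraries that carry liver transcripts. When no filter on low counts was applied, 7 of 10 members were called, 5 of them higher, the additional one being Fbn2, which had 9 of its 10 reads in differentiated control 2. Fbln5 (-0.08), Mfap5 (-0.21) and Fbln1 (-1.01) were not called, although Fbln5 was lower and called with library totals (-0.23) and in log2(TPM + 1) (-0.36), and Mfap5 with library totals (-0.36). Mfap5 was called without differentiated BIGH3 3 (adjusted p = 0.045), and Fbln1 was higher and called without undifferentiated control 2 (2.95, adjusted p = 0.0378).

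Differentiation in BIGH3 treated cells lowered 4 members and raised 1. Here 28.9% of all genes were called higher and 27.7% lower, 56.6% in all. That is 4253 and 4076 genes, against 3107 and 5304 with library totals and 2119 and 5770 on the log2(TPM + 1) scale. Mfap5 fell by 1.75 on the log2 scale (adjusted p = 1.16e-07), Fbln2 by 0.92 (2.53e-11), Fbln5 by 0.46 (6.13e-08) and Fbn1 by 0.23 (0.00229). Efemp2 was higher by 0.32 ± 0.05 (adjusted p = 4.99e-06), and in log2(TPM + 1) it stood at 0.08 and was not called, with the median of all genes at -0.16. Eln (-0.27 ± 0.94, adjusted p = 0.828), Efemp1 (-0.06 ± 0.21, adjusted p = 0.841) and Mfap4 (-0.60 ± 0.32, adjusted p = 0.115) were not called. Mfap4 was called lower in log2(TPM + 1) (-0.36, adjusted p = 0.0254) and without differentiated BIGH3 2 (-0.92, adjusted p = 0.0397), and Fbln1 (2.01 ± 1.63) was not called. This comparison and the previous ones share libraries, so their values are given side by side and are not independent.

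Cell type markers were also counted for BIGH3 in differentiated cells, where 22.6% of all genes tested were called higher and 22.9% lower. Chondrocyte markers fell with BIGH3 in differentiated cells in 6 of 7 tested and rose in 0. Their summed level was 125 to 133 CPM in differentiated BIGH3 libraries and 217 to 227 CPM in differentiated controls, with 2 to 3 and 0 to 2 of the 9 markers at 0 reads, and Acan, a defining cartilage proteoglycan gene, averaged 0.0794 and 0.0276 CPM in the same groups. Of 10 osteoblast markers 9 fell and 1, Spp1, rose, and their sum was 17780 to 19400 CPM in differentiated BIGH3 libraries and 12490 to 13470 CPM in differentiated controls. Of 8 osteocyte markers tested 4 rose and 3 fell, with sums of 972 to 1030 CPM in differentiated BIGH3 libraries and 796 to 812 CPM in differentiated controls. Vascular smooth muscle markers, of a cell type that makes elastin, were called higher in 2 and lower in 2 of 6 tested, and summed to 900 to 939 CPM in differentiated BIGH3 libraries and 930 to 949.8 CPM in differentiated controls. Of the remaining lists, 1 of 9 liver, 2 of 5 tendon and fibroblast, 1 of 3 endothelial, 0 of 4 macrophage and osteoclast and 0 of 4 epithelial markers rose, and 0, 1, 1, 1 and 2 of them fell. The part of these markers in the members' results was not tested.

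Lysyl oxidases crosslink elastin and collagen. Of the 5 lysyl oxidase genes 3 were higher and 1 lower with BIGH3 in differentiated cells, with a median log2 fold change of 0.15. Over all genes tested 22.6% were called higher and 22.9% lower in this comparison, shares that also stand beside the lists that follow. Loxl4 (0.26 ± 0.07, adjusted p = 0.00272) and Loxl3 (0.15 ± 0.06, 0.033) were higher and Loxl1 lower (-0.14 ± 0.05, 0.0324). Lox, the founding member of the family, was at 1080 ± 20.9 CPM in differentiated BIGH3 cells and 1071 ± 51.8 CPM in differentiated controls (log2 fold change 0.01 ± 0.04, adjusted p = 0.84). It was 0.93 ± 0.04 higher on the log2 scale in differentiated than in undifferentiated controls (adjusted p = 3.53e-13).

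Of the 4 latent TGF-beta binding protein genes, whose products sit on fibrillin microfibrils, 2 rose and 2 fell. In differentiated cells given BIGH3, Ltbp2 (1.29 ± 0.10, adjusted p = 4.22e-09) and Ltbp1 (0.31 ± 0.05, 2.49e-05) rose. Ltbp4, which in mice is needed for elastin assembly, fell by 1.39 on the log2 scale (3.79e-07) and Ltbp3 by 0.29 (0.00281).

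Of the ADAMTS-like and processing genes tied to fibrillin 6 of 9 tested fell with BIGH3 in differentiated cells and 0 rose, with a median of -0.37. Of all genes tested 22.9% were called lower there and 22.6% higher. Adamtsl3 fell by 0.67 on the log2 scale (adjusted p = 4.64e-09), Thsd4, which promotes fibrillin assembly, by 0.44 (2.05e-06), Adamtsl1 by 0.37 (3.65e-05) and Adamtsl5 by 0.34 (0.000126). Pcsk5, a proprotein convertase gene, had 0 reads over the differentiated BIGH3 libraries and 57 over the differentiated controls, at least 16.5-fold lower when the treated group's total is set at 3 reads, and the list's median is the same with it at this bound. Of the 11 tested genes at the microfibril and elastic fibre interface 2 rose and 2 fell. The proteoglycan gene Dcn (1.60 ± 0.05, adjusted p = 2.39e-15) and Mfap3 (0.21 ± 0.07, 0.0229) rose, while Vtn, encoding vitronectin (-1.81 ± 0.18, 3.28e-08), and Aebp1 (-0.41 ± 0.05, 2.73e-07) fell.

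Among 12 tested genes of elastin degrading proteases and their inhibitors 6 rose and 5 fell with BIGH3 in differentiated cells. For this and the other lists here, the shares over all genes tested were 22.6% called higher and 22.9% lower. The gelatinase gene Mmp9 (1.60 ± 0.08, adjusted p = 2.13e-12) and Slpi, an inhibitor of neutrophil elastase (2.36 ± 0.10, 3.47e-10), rose. Timp3, a matrix-bound metalloproteinase inhibitor gene, fell by 0.85 on the log2 scale (4.17e-13) and the cathepsin gene Ctsk by 0.99 (3.17e-09). Of 12 receptor genes 3 rose and 3 fell, and the integrin subunit gene Itga8 fell the furthest of those named (-3.28 ± 0.12, adjusted p = 9.67e-15), while Sdc4 (0.85 ± 0.05) and Ctsa, of the elastin receptor complex (0.71 ± 0.05), rose. Of 22 tested regulators of elastin synthesis 10 rose and 3 fell, with Tgfbr3 (1.44 ± 0.05, adjusted p = 6.73e-16), Jun (1.21 ± 0.06, 2.35e-12), Nfkb1 (0.89 ± 0.05, 1.96e-12) and Smad3 (0.56 ± 0.05, 2.38e-08) higher. In undifferentiated cells 0 genes of these lists were called with BIGH3, where only 3 of all 14711 genes tested were called.

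**Figure D4:**
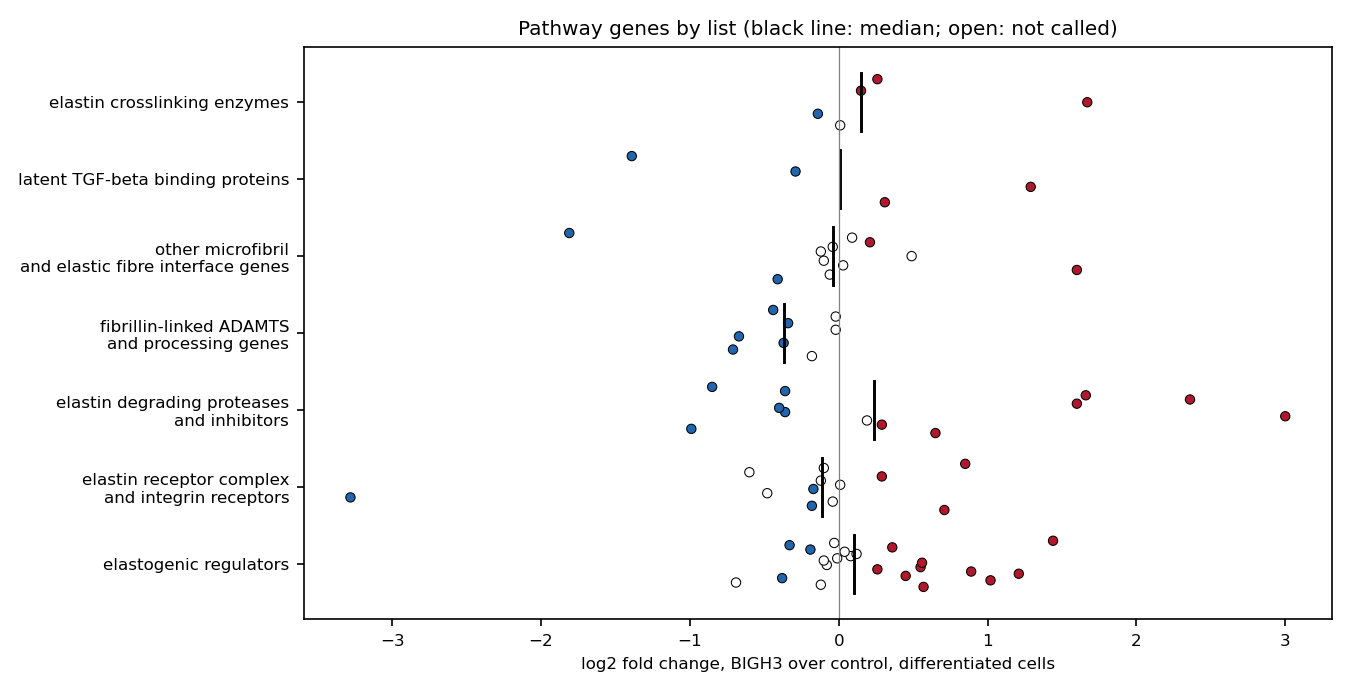
Log2 fold change with BIGH3 in differentiated cells (x axis) of each tested gene of 7 pathway lists, 1 point a gene, filled where called, with each list's median as a black line. Pcsk5, with 0 reads in differentiated BIGH3 libraries, is not drawn. The ADAMTS and processing list has its median at -0.37 and the crosslinking enzymes at 0.15.

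Among 10252 genes of sufficient level with a pattern to compare, those most like Eln over the 12 libraries were Apod, Aff3, Ccl11, Igf2 and Disp2, with root mean square differences in centred log2 CPM of 0.605 to 0.743. Apod, an apolipoprotein gene, averaged 402 CPM in differentiated BIGH3 cells, 3600 CPM in differentiated controls, 657 CPM in undifferentiated BIGH3 cells and 662 CPM in undifferentiated controls. Igf2 averaged 165 CPM in differentiated BIGH3 cells and 1080 CPM in differentiated controls. Among the other tested members Mfap4 was nearest to Eln (0.647). Efemp2, the member with the highest level in TPM, varied little, and the genes most like it were Xpnpep1, Keap1, Kctd10, Myof and Bach1 (0.037 to 0.043).

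Promoter windows of 300 bases from RefSeq (GRCm38), 250 before to 50 after a start, were matched for 6 of the 10 members. Windows of Fbln5, which fell with BIGH3 in differentiated cells, and Efemp2, which was called higher, are shown because these members went opposite ways, each the window nearest the start of its main transcript. Capitals mark GGGCGG, the core of the Sp1 motif, which was sought on both strands along with AP-1 (TGANTCA), NF-kB (GGANTTTCC), C/EBP (TTGCNNAA) and the TATA box (TATAAA). The Efemp2 window, chr19:5474440-5474739 on the + strand, holds 5 matches to the Sp1 core, some overlapping, and the Fbln5 window, chr12:101818435-101818734 on the - strand, holds none of the motifs. Other RefSeq windows of the same genes differ: a second Fbln5 window holds 2 matches to the Sp1 core, and further Efemp2 windows hold 2 and 7.
Fbln5: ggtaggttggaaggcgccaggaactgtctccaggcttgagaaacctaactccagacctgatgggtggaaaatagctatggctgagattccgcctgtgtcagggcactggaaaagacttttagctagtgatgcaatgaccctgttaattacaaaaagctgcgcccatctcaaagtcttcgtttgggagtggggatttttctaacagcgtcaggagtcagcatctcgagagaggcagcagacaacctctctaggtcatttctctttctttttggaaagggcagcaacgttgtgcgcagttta
Efemp2: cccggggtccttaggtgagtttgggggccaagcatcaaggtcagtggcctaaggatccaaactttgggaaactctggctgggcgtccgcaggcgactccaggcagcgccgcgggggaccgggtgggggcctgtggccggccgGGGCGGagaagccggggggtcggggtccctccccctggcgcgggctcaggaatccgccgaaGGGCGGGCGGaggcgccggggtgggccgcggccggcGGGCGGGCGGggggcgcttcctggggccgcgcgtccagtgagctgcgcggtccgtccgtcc

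Among 32851 promoter windows of the same length 35.7% hold the Sp1 core, 7.81% AP-1, 1.25% NF-kB, 10.8% C/EBP and 13.6% the TATA box. The Efemp1 window held 1 match each to AP-1, C/EBP and the Sp1 core, and the Fbn1 and Fbln2 windows held 1 and 2 matches to the Sp1 core. These matches describe the letters of the windows, and no binding was measured.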

How the data were processed

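The 4 groups held 3 RNA libraries each, 12 in all. Per the file headers, the authors' files give estimated counts (NumReads) and TPM for each transcript from Salmon, with 1 file per library. The submitters' processing notes also name FastQC, cutadapt, StringTie and mm10, and versions and strand are not given in the sources used here. Estimated counts of 137063 of 147828 transcripts (92.7%) were matched to GENCODE on GRCm38, summed per gene and rounded. Unmatched transcripts held 1.28% to 3.67% of reads.

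Genes passing edgeR's filterByExpr by group (14711) were scaled by TMM and fitted over the 12 libraries with 1 term per group in edgeR 4.0.16 (R 4.3.3), using the robust quasi-likelihood test with Benjamini-Hochberg adjustment over all genes tested. A gene was called at an adjusted p below 0.05. Standard errors were taken from the F statistic, and the biological coefficient of variation was 8.18%. Alternatives used DESeq2 1.42.0, limma 3.58.1 on log2(TPM + 1) and log2(TPM + 0.1), other scalings, filters, length offsets, a replicate block and the libraries left out 1 at a time. Fits without the libraries with liver transcripts were chosen after seeing the data. The gene test was tested on simulated data.

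Transcript shares were tested with edgeR's diffSpliceDGE, chosen after the shares were seen. On simulated data this test at first failed its check over all changed transcripts, because a change in expression hardly moves the share of a transcript that makes up most of its gene. It was then scored by the true change of the share, and uncalled shares are not read as unchanged.

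The 10 members were always named. Pathway genes were named by the smallest adjusted p, up to 4 a list and comparison, at a mean log2 CPM of at least 1. Transcripts were nameable at 10% of a gene's reads. The genes most like Eln and Efemp2 were ranked by root mean square difference in log2 CPM centred per gene. The members, the lists and the Fbln2 exon were chosen with earlier results of these data known. Protein sequences were not used here.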

Additional observations from a re-analysis of the deposited data

Results flagged for a closer look

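For 6 of the 9 tested members the effect of BIGH3 in differentiated cells differed from its effect in undifferentiated cells by the interaction term in edgeR, on the log2 scale. The differences were -3.76 for Mfap4, -3.26 for Eln, -1.54 for Mfap5, -0.65 for Fbln2, -0.46 for Fbn1 and -0.38 for Fbln5. The Eln call was lost in 9 of 12 fits that left out 1 library. In 8 of these the difference stayed between -3.66 and -2.64, and it was -1.54 (adjusted p = 0.606) without undifferentiated BIGH3 1, which held 5 of the 6 Eln reads of its group. Across all genes tested 32.2% were called for this term. Groups of 3 libraries are too small for a test of single outlying libraries.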

How the results depend on the processing

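Of 1045 recomputed values 968 kept their direction and their side of the threshold. With the direction kept, 30 lost a call and 14 gained one. The other 33 changed sign, and some of these lost or gained a call as well. Every fall of Eln, Fbn1, Fbln2, Fbln5, Mfap4 and Mfap5 with BIGH3 in differentiated cells was kept under the alternatives run, except that Eln was not tested with the stricter low-count filter. The number of members called there was 7 to 8 with 1 library left out and 6 without the 3 or 4 libraries with liver transcripts. The cause of the changes below was not tested.

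For BIGH3 in undifferentiated cells, where no member was called, signs changed for Fbn1 in log2(TPM + 1) (-0.032), log2(TPM + 0.1) (-0.032) and without the 4 libraries (-0.039). They changed for Efemp1 with length offsets (0.026), without the 3 libraries (0.059) and without the 4 (0.127). They changed for Efemp2 with library totals (-0.018), on both TPM scales (-0.014), without the 3 libraries (-0.027) and without the 4 (-0.039). For differentiation in controls Fbn1 (-0.068 and -0.069) and Efemp2 (-0.11 on both) changed sign on the TPM scales, and for differentiation with BIGH3 Eln did without the 4 libraries (1.01).

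With 1 library left out, values that changed sign ranged for BIGH3 in differentiated cells from -0.18 to 1.21 for Fbln1. For BIGH3 in undifferentiated cells they ranged from -0.041 to 0.116 for Fbn1, -4.69 to 1.19 for Fbln1, -0.148 to 0.062 for Efemp1 and -0.025 to 0.032 for Efemp2. For differentiation in controls Fbln1 ranged from -1.98 to 2.95. For differentiation with BIGH3 the range was -0.78 to 1.45 for Eln and -0.172 to 0.064 for Efemp1. For the interaction Fbln1 ranged from -0.94 to 4.93. The Eln interaction, which did not change sign, ranged from -3.77 to -1.54.

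Between groups, libraries with the same replicate number had correlated deviations of -0.224 to 0.35, and those with different numbers -0.308 to 0.326. Whether the numbers pair the libraries is not stated, and these correlations cannot settle it. With the replicate block the Eln interaction (-3.195, adjusted p = 0.0602) was no longer called and the Efemp2 interaction (0.165, adjusted p = 0.0487) was called, with no other call of a member changed. The members called with the block numbered 8 for BIGH3 in differentiated cells, 0 in undifferentiated cells, 6 for differentiation in controls, 5 with BIGH3 and 6 for the interaction. Eln, Fbln1 and Fbn2 had few reads, so depth limits their values most.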
